A study of Homo sapiens with 6 samples.

Results

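The accessible sites described here were the ATAC-seq peaks that overlapped 11 windows of the hg19 genome next to centromeres or in segmentally duplicated DNA. The windows were chr1:142000001-150000000, chr2:91000001-93000000, chr2:132000001-134000000, chr9:65000001-71000000, chr10:38000001-43000000, chr14:106000001-107300000, chr15:20000001-24000000, chr16:32000001-35000000, chr17:36000001-37000000, chr20:29000001-30000000 and chr21:9000001-12000000. The windows were chosen by the number and local background of the peaks in these same lists, so the count of peaks, their enrichment and their background there describe the choice and were not tested. In all, 378 of the 29879 peaks of the 6 libraries lay in the windows. Peaks that shared at least 1 bp were merged into regions, and 260 of the 23972 merged regions lay there.

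In ATAC-seq the Tn5 transposase inserts adapters where chromatin is accessible, and places with many short fragments above their surroundings are called as peaks. The study compared the chromatin landscapes of 3 established human oesophageal lines, each with 2 libraries named here by the numbers in the labels, and where 2 values are given for a line they follow those numbers. HET-1A (libraries 1 and 2) is an immortalised, non-cancerous epithelial line kept in BEBM medium with its additives. KYSE-150 (numbers 7 and 8) and KYSE-30 (numbers 4 and 6) are squamous cell carcinoma lines grown in RPMI/F12 medium with serum and antibiotics. No line was treated. Each group was therefore 1 line, the lines differed in medium as well as in origin, and nothing in the labels says that the 2 libraries of a line came from separate cultures, so the spread between them may be technical.

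Pericentromeric DNA flanks the centromere and holds satellite arrays and blocks of sequence copied from other chromosomes. Segmental duplications are long stretches present more than once in the genome at high identity, and the gene families within them (NBPF, NOTCH2NL, GOLGA8, TBC1D3 and others) expanded by such copying. A short sequenced fragment from such DNA can match several places, and the reference may hold fewer copies than a cell does, so the number of fragments piled up at a place reflects the copies as well as the openness of the chromatin.

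The sequences below show how the peaks of the windows differ in uniqueness. Each stretch surrounds the summit of the highest peak of a region that later paragraphs turn on, on the plus strand of hg19. Capitals mark bases covered by a 50-base word that occurs at least once more in the reference on either strand, and lower case marks bases that no such word covers.
Chromosome 2 region with a peak in 6 libraries, chr2:133025720-133025919: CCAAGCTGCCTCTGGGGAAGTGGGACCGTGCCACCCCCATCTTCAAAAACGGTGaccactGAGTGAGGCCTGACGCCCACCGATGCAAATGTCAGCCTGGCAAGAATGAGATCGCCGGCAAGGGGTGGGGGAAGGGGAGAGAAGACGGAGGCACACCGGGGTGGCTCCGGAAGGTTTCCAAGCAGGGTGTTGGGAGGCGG
Chromosome 2 region with a peak in 5 libraries, chr2:133018778-133018977: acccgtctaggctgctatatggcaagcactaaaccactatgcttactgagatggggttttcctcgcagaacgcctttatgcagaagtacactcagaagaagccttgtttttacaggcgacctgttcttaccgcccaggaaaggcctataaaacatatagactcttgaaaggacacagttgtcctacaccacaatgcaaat
Chromosome 9 region with a peak in 5 libraries, chr9:66455258-66455457: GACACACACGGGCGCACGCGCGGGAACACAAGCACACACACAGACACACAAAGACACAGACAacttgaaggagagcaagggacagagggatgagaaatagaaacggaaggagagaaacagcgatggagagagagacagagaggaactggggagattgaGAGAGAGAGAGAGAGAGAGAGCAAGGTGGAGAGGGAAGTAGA
TBC1D3 region, chr17:36348969-36349168: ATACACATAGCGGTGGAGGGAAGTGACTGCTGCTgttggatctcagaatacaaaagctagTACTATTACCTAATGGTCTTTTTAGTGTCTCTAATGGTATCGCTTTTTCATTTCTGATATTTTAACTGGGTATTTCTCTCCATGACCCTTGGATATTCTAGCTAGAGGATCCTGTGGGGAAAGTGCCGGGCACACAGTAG
NBPF14 region of KYSE-150, chr1:148009451-148009650: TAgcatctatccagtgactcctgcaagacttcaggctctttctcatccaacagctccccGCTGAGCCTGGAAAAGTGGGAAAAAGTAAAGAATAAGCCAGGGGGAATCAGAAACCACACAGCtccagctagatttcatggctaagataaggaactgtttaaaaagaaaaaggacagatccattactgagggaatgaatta
TUBGCP5 promoter, chr15:22833312-22833495: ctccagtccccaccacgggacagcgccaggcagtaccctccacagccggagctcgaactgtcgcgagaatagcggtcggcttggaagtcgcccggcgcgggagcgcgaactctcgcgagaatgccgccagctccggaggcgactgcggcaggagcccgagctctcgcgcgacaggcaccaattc

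Repeated words covered 97% of the stretch from the chromosome 2 region with a peak in 6 libraries, 87% of the TBC1D3 stretch, 52% of the chromosome 9 stretch and 32.5% of the NBPF14 stretch. They covered 0 bases of the other chromosome 2 stretch and 0 bases of the TUBGCP5 promoter. The TUBGCP5 stretch, which ends at the base before the annotated start site, was also the richest in G and C (69.0%) and in CpG (24 CpG in 184 bases). None of the 6 stretches held the AP-1 core motif (TGAGTCA or its reverse complement TGACTCA). Outside the printed bases the motif did occur in the chromosome 2 region with a peak in 6 libraries and in the NBPF14 region. For comparison, copies of the chromosome 2 stretch with a peak in 6 libraries are shown from 2 unplaced scaffolds of the assembly. They are read on the minus strand of those scaffolds, with capitals for bases that differ from the chromosome 2 sequence.
Copy on scaffold GL000229.1, bases 7215 to 7414: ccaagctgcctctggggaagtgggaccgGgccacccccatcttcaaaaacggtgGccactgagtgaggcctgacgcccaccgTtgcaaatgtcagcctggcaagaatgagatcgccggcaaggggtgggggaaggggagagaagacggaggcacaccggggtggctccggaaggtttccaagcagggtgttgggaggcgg
Copy on scaffold GL000220.1, bases 134656 to 134855: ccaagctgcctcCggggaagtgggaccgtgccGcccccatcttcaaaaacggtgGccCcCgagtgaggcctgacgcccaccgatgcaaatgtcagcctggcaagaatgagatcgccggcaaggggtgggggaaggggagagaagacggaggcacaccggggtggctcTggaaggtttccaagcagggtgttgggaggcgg
These copies differed from the chromosome 2 stretch at 3 and 6 of 200 bases, an identity of 98.5% and 97%.

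The lists of the 6 libraries were very unequal, and this bears on every count. The HET-1A lists held 168 and 15979 peaks, those of KYSE-150 547 and 259, and those of KYSE-30 1255 and 11671. The lists carry no read totals, so depth is unknown. Of 14 genes that mark squamous epithelium, 7 had a promoter peak in HET-1A library 2 and 3 in KYSE-30 library 6. Over all annotated genes the share with a promoter peak was 17.2% and 13.7% in these lists. These shares count non-coding genes and pseudogenes too, and the share of protein-coding genes with a promoter peak is not given here. None of the 14 had one in the other 4 libraries, where at most 1.94% of all genes did, so the marker check says nothing about those libraries. No marker of B cells (6 genes) or of other leukocytes (4 genes) had one in any library. Of 8 mesenchymal markers, 1 had a promoter peak in each of HET-1A library 2 and KYSE-30 library 6. No test between lines was run, because permuting 2 libraries against 2 yields no two-sided p below 0.333 even when exact.

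The windows together span 36.3 Mb, of which 25.1 Mb is sequence and the rest assembly gaps, and that sequence makes up 0.878% of the reference. In the long lists (HET-1A library 2 and KYSE-30 library 6) the windows held a share close to this or below it. They held 147 peaks or 0.920% of HET-1A library 2 (Wilson 95% interval 0.783 to 1.08%) and 78 peaks or 0.668% of KYSE-30 library 6 (0.536 to 0.833%). The latter interval lay below 0.878%. In the short lists the share was larger, with 16 peaks or 9.52% of HET-1A library 1 (5.95 to 14.9%), 58 peaks or 10.6% of KYSE-150 library 7 (8.29 to 13.5%), 50 peaks or 19.3% of KYSE-150 library 8 (15 to 24.5%) and 29 peaks or 2.31% of KYSE-30 library 4 (1.61 to 3.3%). The libraries of HET-1A lay far apart, as did those of KYSE-30, and KYSE-150 was the line in which both were high. The intervals cover counting error only. With each list cut to its 168 peaks of smallest p-value, the share was 9.52% and 0.595% for HET-1A, 16.1% and 23.2% for KYSE-150, and 6.55% and 1.79% for KYSE-30. The libraries still differed at equal list length, and both KYSE-150 libraries were the highest.

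Per megabase of sequence, the windows held 0.637 and 5.86 peaks for HET-1A, 2.31 and 1.99 for KYSE-150, and 1.16 and 3.11 for KYSE-30. Outside the windows the density was 0.0536 and 5.59, 0.173 and 0.0738, and 0.433 and 4.09 for the same lines. Peaks just outside the windows were few in the short lists. In the 12.8 Mb of sequence within 1 Mb of a window on either side, there were 0 peaks in HET-1A library 1, 3 and 1 in the KYSE-150 libraries and 5 in KYSE-30 library 4. Per Mb this was 0.235 and 0.0782 for KYSE-150 and 0.391 for KYSE-30 library 4, near the densities outside the windows in these lists. The same flanks held 127 peaks in HET-1A library 2 and 53 in KYSE-30 library 6, which is 9.94 and 4.15 peaks per Mb and above the density in the windows themselves.

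**Figure D1:**
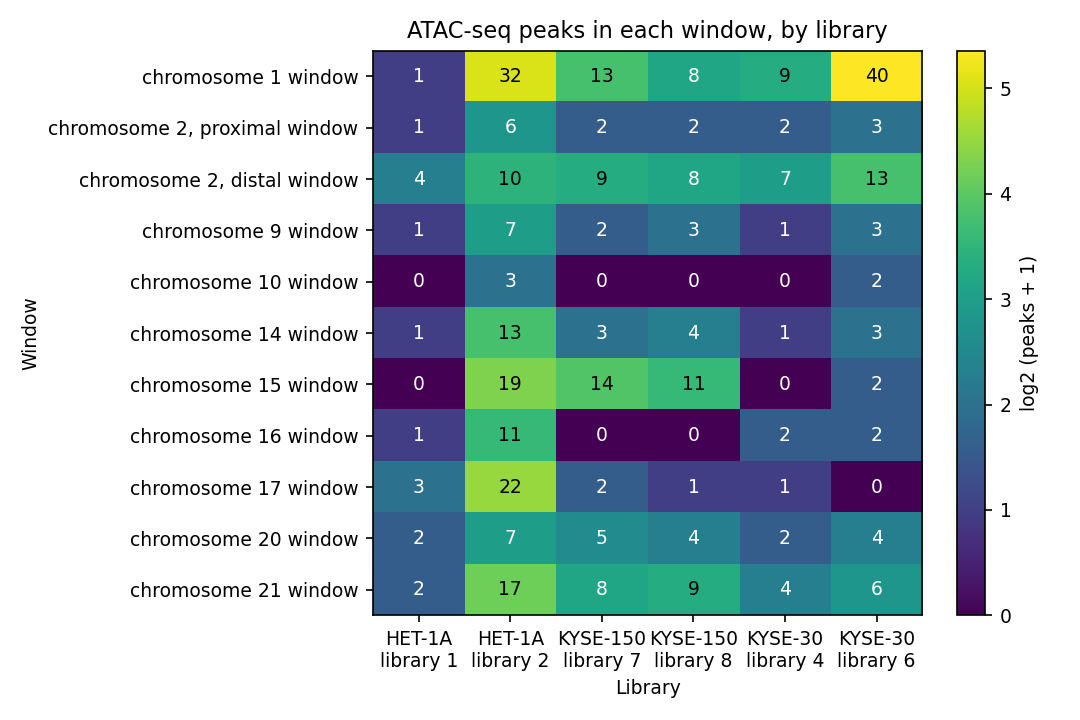
Number of ATAC-seq peaks in each of the 11 windows (rows) and 6 libraries (columns); colour gives log2 of the count plus 1 and the digits give the count. HET-1A library 2 and KYSE-30 library 6 have the largest counts in the chromosome 1 window (32 and 40), whereas the chromosome 15 window holds 14 and 11 peaks in the KYSE-150 libraries and 0 or 2 in the KYSE-30 libraries.

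The windows were not filled alike across the libraries, and the 2 libraries of a line also differed in some windows. The intervals below cover counting error within 1 library, so whether they overlap does not compare the lines. The chromosome 15 window, which covers the proximal long arm with its GOLGA8 and HERC2 duplications, held 14 and 11 peaks in KYSE-150, 0 and 19 in HET-1A, and 0 and 2 in KYSE-30. Its share of the KYSE-150 lists was 2.56% (1.53 to 4.25%) and 4.25% (2.39 to 7.44%), against 0.119% of HET-1A library 2 (0.0761 to 0.186%). All windows together also took a larger share of the KYSE-150 lists. Among the peaks in the windows alone, the chromosome 15 window held 24.1% (15 to 36.5%) and 22% (12.8 to 35.2%) in KYSE-150 and 12.9% (8.43 to 19.3%) in HET-1A library 2, with intervals that overlapped. In KYSE-30 library 6 it held 2.56% (0.706 to 8.88%), below both KYSE-150 intervals. The chromosome 17 window, around the TBC1D3 genes, held 3 and 22 peaks in HET-1A, 2 and 1 in KYSE-150, and 1 and 0 in KYSE-30. With 0 of 11671 peaks there, KYSE-30 library 6 had an upper limit of 0.0329%, and the share of HET-1A library 2 was 0.138% (0.0909 to 0.208%). Of the peaks in the windows this was 0 of 78 (up to 4.69%) against 22 of 147 (10.1 to 21.6%). The chromosome 16 window held 1 and 11 peaks in HET-1A, 2 in each KYSE-30 library and 0 in both KYSE-150 libraries. The largest window, on chromosome 1, held 103 peaks in all, and the chromosome 10 window held the fewest, 5. The copy number of these chromosomes in the lines was not measured here, and its part in these counts was not tested.

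To check that the windows hold duplicated DNA, the reference itself was cut into 200 bp tiles. A tile or peak was called multi-copy when more than 50% of its 50-base words occurred elsewhere in the genome. By this measure 52.9% of tiles in the windows were multi-copy, against 6.26% of tiles outside. The share ran from 89.8% in the chromosome 9 window and 63.2% in the chromosome 2 window next to the centromere down to 13.6% in the chromosome 14 window. The chromosome 14 window holds the immunoglobulin heavy chain locus at the end of the long arm and is duplicated but not pericentromeric. The chromosome 17 window (17.8%), the chromosome 2 window on the long arm (19.8%) and the chromosome 20 window (16%) were also mostly unique by this measure.

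Peaks in the windows were multi-copy more often than peaks elsewhere in every library. Inside the windows the share was 12.5% and 18.4% for HET-1A, 24.1% and 32% for KYSE-150, and 24.1% and 10.3% for KYSE-30. Outside it was 3.95% and 0.777%, 3.27% and 12.4%, and 3.1% and 0.656% for the same lines. The mean difference was 16.2 percentage points ± 5.66 (SD, n = 6 libraries), higher inside in 6 of 6 libraries, with an exact two-sided sign-flip permutation p = 0.03125, the smallest that 6 libraries can give, and a Benjamini-Hochberg adjusted p = 0.125 over the 4 sequence features tested. The difference thus had a uniform direction and did not pass the correction. The windows were named for their duplicated DNA, so this direction is also not independent of the choice of windows. Inside the windows, the peaks of each library were multi-copy less often than the 52.9% of the sequence they lay in.

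**Figure D2:**
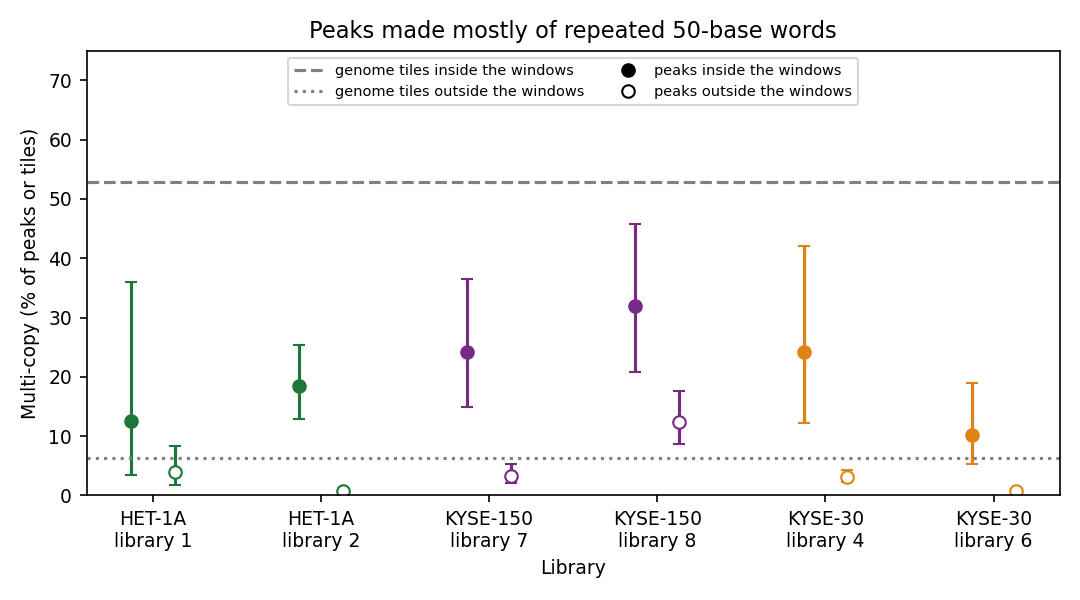
Share of peaks called multi-copy (percent, y axis) inside (filled) and outside (open) the windows for each library (x axis), with Wilson 95% intervals; the dashed and dotted lines give the share of 200 bp genome tiles inside and outside the windows. Each filled point lies above the open point of its library and below the dashed line at 52.9%.

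Exact words miss copies that have diverged by a few bases, so each merged region was also compared with the whole genome by alignment. A near copy was another place that matched at least 80% of the region at 90% identity or more. Of the 260 regions in the windows, 182 (70%, Wilson 95% interval 64.2 to 75.2%) had a near copy. Of 1186 regions outside, taken as every 20th region, 59 (4.97%, 3.88 to 6.36%) had one. The windows were named for their duplicated DNA, so the higher share inside is not independent of their choice and was not tested. The near-copy share of the window sequence itself is not given here, so the 70% is not set against it. The best copy had a median identity of 97.4% for the regions in the windows, and 70 of them had a copy at 98% or more. In the chromosome 21 window 27 of 28 regions and in the chromosome 9 window 11 of 11 regions had near copies, whereas 10 of 24 did in the chromosome 17 window and 43 of 74 in the chromosome 1 window. By library, 15 of 16 peaks of HET-1A library 1, 45 of 50 of KYSE-150 library 8 and 47 of 58 of KYSE-150 library 7 lay in regions with a near copy, against 39 of 78 of KYSE-30 library 6. HET-1A library 2 had 107 of 147 and KYSE-30 library 4 had 21 of 29.

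A peak at a copy was also counted. The 166 regions with 1 to 20 near copies had 792 copies in all, of which 217 (27.4%) lay on the same chromosome and 296 (37.4%) lay in one of the windows. A peak was called at 28 (3.54%) of the 792 copies, and these belonged to 23 of the 166 regions. Of the copies 169 lay on unplaced scaffolds, where 0 had a peak, and 28 of the other 623 (4.49%) had one. Whether the lists could hold peaks on scaffolds was not checked, so the 0 is not read as a result. For 44 of the regions outside the windows, with the same limit on copies, 18 of 181 copies (9.94%) had a peak. On chromosomes alone this was 18 of 175 (10.3%), to be set beside the 4.49%. How fragments that match several places were assigned is not given in the sources used here, and its part in these shares was not tested.

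**Figure D3:**
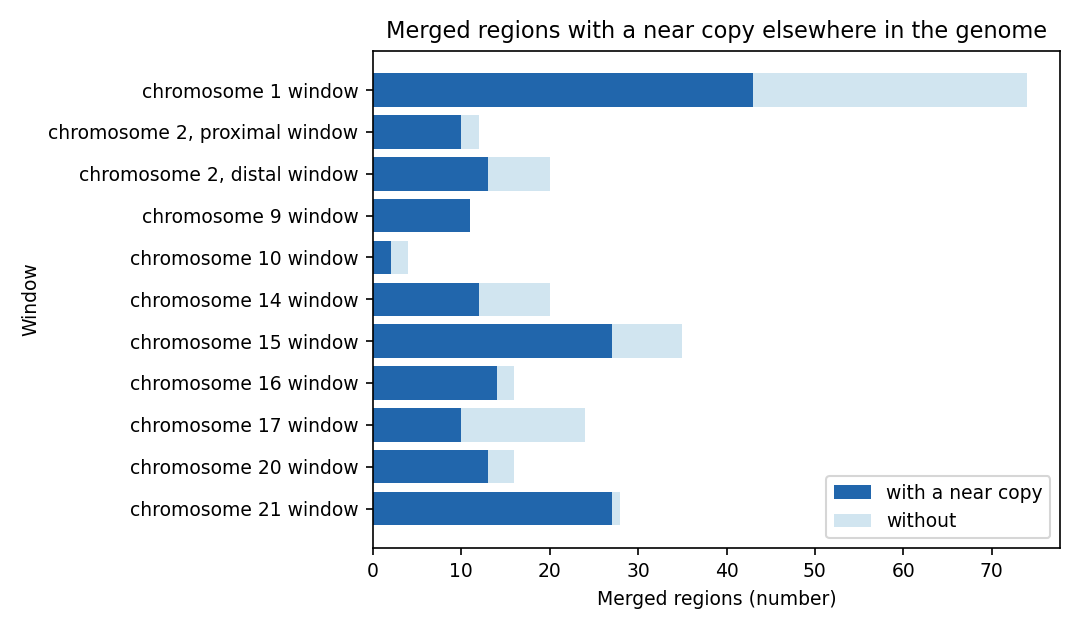
Number of merged regions in each window (x axis, horizontal bars) with a near copy elsewhere in the genome (dark) and without (light). The chromosome 21 bar is dark for 27 of 28 regions and the chromosome 9 bar for all 11, and the chromosome 17 bar for 10 of 24.

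Local background and enrichment are given as a description, since the windows were chosen on them. The number of tags at a summit and the background expected there were recovered from the enrichment and the p-value of each peak, and the background was divided by the smallest one of the library. The median of this relative background inside the windows was 2.61 and 1.6 for HET-1A, 2.23 and 2.08 for KYSE-150, and 2.01 and 1.34 for KYSE-30. Outside it was 1.27 and 1.45, 1.37 and 1.59, and 1.42 and 1.44. It was higher inside in 5 libraries and lower in KYSE-30 library 6. Fold enrichment at the summit had medians inside of 4.73 and 3.68, 4.07 and 4.3, and 4.56 and 5.19 in the same order of lines, and outside of 4.64 and 4.23, 4.07 and 4.19, and 4.28 and 5.48. Within the windows, HET-1A library 2 peaks had a median relative background of 1.83 in regions with a near copy (107 peaks) and 1.2 in regions without (40 peaks). KYSE-150 library 7 (2.35 over 47 peaks and 1.56 over 11) and KYSE-30 library 4 (2.06 over 21 and 1.17 over 8) had the same direction. KYSE-150 library 8 went the other way (2.06 over 45 and 3.14 over 5), and in KYSE-30 library 6 both medians were 1.34 (39 peaks each). HET-1A library 1 had 15 peaks with a near copy and 1 without.

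**Figure D4:**
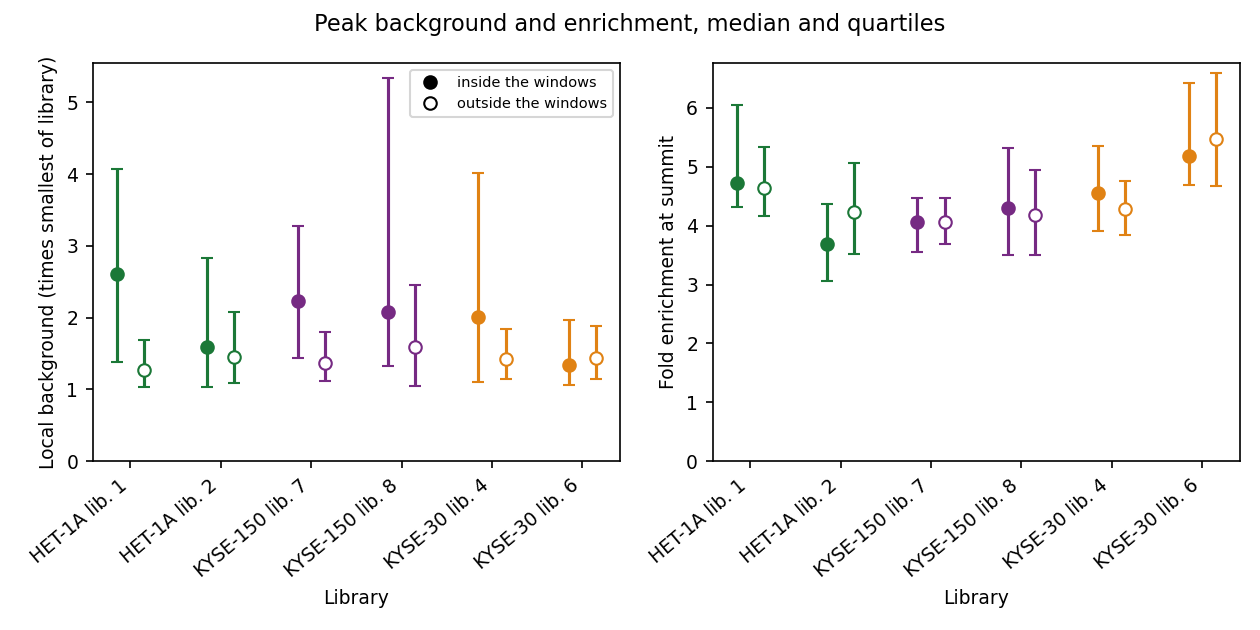
Relative local background (left) and fold enrichment at the summit (right) of peaks inside (filled) and outside (open) the windows for each library; points are medians and bars run from the lower to the upper quartile. The background median is higher inside in 5 libraries, with KYSE-30 library 6 (1.34 and 1.44) as the exception, while the fold medians lie between 3.68 and 5.48 on both sides.

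Recurrence across libraries was concentrated in few places. Of the 260 regions, 192 had a peak in 1 library, 39 in 2, 17 in 3, 8 in 4, 3 in 5 and 1 in all 6. A peak in all 6 libraries was found at 0.0626% of all merged regions, and 1 of those 15 regions lay in the windows. A peak in all 3 lines was found at 14 regions in the windows (5.38%), against 0.859% of all merged regions. Such a region needs a peak in KYSE-150, and the windows, chosen by peak counts, held a larger share of both KYSE-150 lists than of the long lists. The higher share of such regions is therefore not independent of the choice of windows and was not tested. That count depended on HET-1A library 2 and KYSE-30 library 4, since without them it was 5 and 7. Of the regions seen in a single library, 95 came from HET-1A library 2 and 46 from KYSE-30 library 6, the longest lists, and 2 from HET-1A library 1.

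The most recurrent place was a run of 8 regions within 15.2 kb on chromosome 2, chr2:133016311-133031486, beside ANKRD30BL and around the pseudogene CDC27P1. It held 35 of the 378 peaks. Each of its regions had a peak in at least 3 libraries, 6 of them in 4 or more, and 5 in all 3 lines. The region at chr2:133025587-133026009, which is intergenic and 5686 bp from the CDC27P1 start, had a peak in all 6 libraries. Its fold enrichment was 9.43 and 4.22 for HET-1A, 10.6 and 9.67 for KYSE-150, and 6.46 and 4.84 for KYSE-30. The long lists gave the lowest values. The KYSE-150 values lay above all others, by a small margin over HET-1A library 1, and those of HET-1A and KYSE-30 overlapped. The tags at its summit numbered 91 and 54 in HET-1A, 178 and 225 in KYSE-150, and 71 and 32 in KYSE-30, and the q-value was 1.56e-135 in KYSE-150 library 8 and 6.11e-11 in KYSE-30 library 6.

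The neighbouring region at chr2:133018693-133019068, 833 bp before CDC27P1, had a fold enrichment of 6.29 in HET-1A library 2, 6.57 and 8.68 in KYSE-150, and 7.67 and 4.75 in KYSE-30, with no peak in HET-1A library 1. All peaks of the run stood on a raised background. The lowest relative background in the run was 3.92 and 3.6 for HET-1A, 4.4 and 6.67 for KYSE-150, and 3.92 and 3.54 for KYSE-30. The other peaks of the windows had medians of 2 and 1.56, 1.86 and 1.98, and 1.4 and 1.32, so each peak of the run exceeded the median of the rest in its library. KYSE-150 library 8 was highest, with a median of 9.37 in the run and 11.9 at the region next to ANKRD30BL.

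Of the 8 regions of the run, 7 had near copies, and the copies kept their order. On scaffold GL000220.1 there were copies of 7 regions within 18.9 kb, all on the minus strand, at 90.6 to 93.3% identity. On scaffold GL000229.1 there were copies of 6 regions within 13.4 kb, also all on the minus strand, at 90.2 to 97.4% identity. Copies of 4 regions lay on chromosome Y within 7.33 kb and copies of 2 on chromosome 16. The printed stretch of the region with 5 peaks shares no 50-base word with its copies although its best copy is 94.7% identical.

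**Figure D5:**
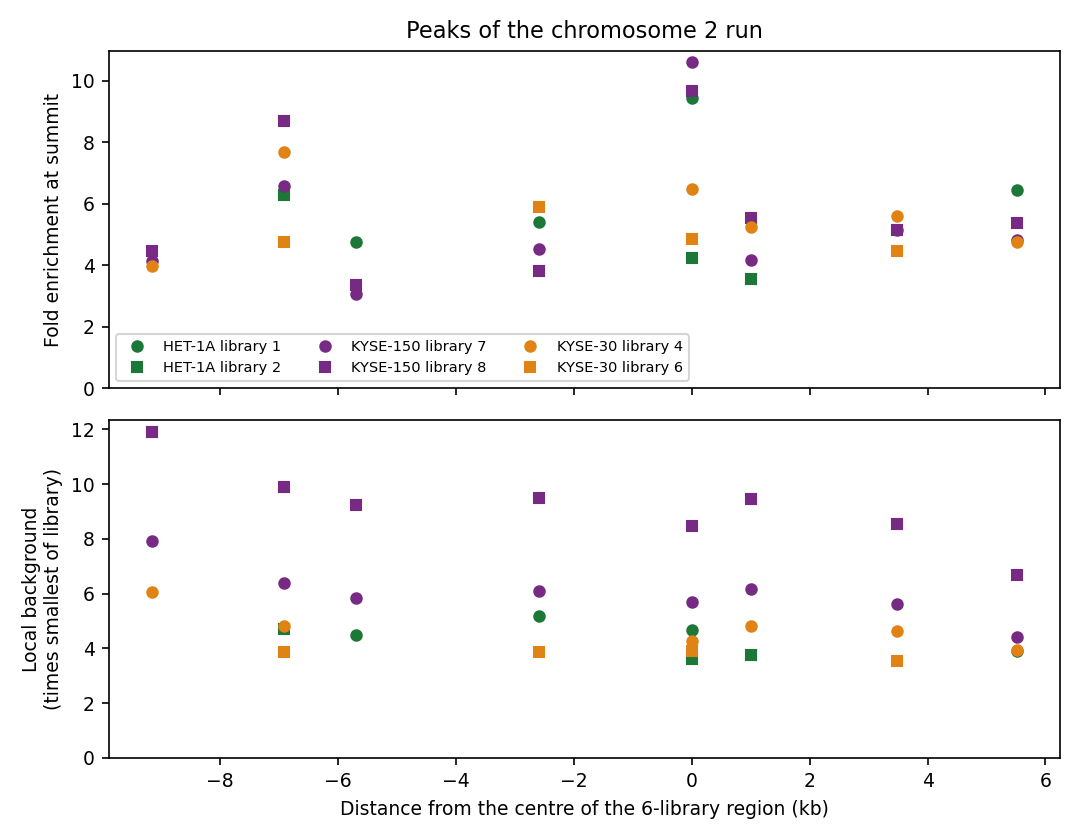
Fold enrichment at the summit (top) and relative local background (bottom) of the peaks of the chromosome 2 run in each library, against the distance in kb of the region's centre from the centre of the region with a peak in 6 libraries. The enrichment is highest at distance 0 in KYSE-150 and HET-1A library 1 (9.43 to 10.6), while the background of KYSE-150 library 8 stays between 6.67 and 11.9 over the whole run.

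Outside this run, 2 regions had a peak in 5 libraries and both lacked one in KYSE-30 library 6. For the region on chromosome 21 this rests on the merging rule, because the region directly adjoining it had a peak in that library. On chromosome 21, the intergenic region chr21:10140244-10141197 had a fold enrichment of 4.38 and 5.30 in HET-1A, 3.95 and 4.09 in KYSE-150, and 5.03 in KYSE-30 library 4. It was among the most copied regions, with 45 near copies, 1 of them on the same chromosome and the best at 99.3% identity on an unplaced scaffold. On chromosome 9, chr9:66454896-66455968 in an exon of the lncRNA gene ENSG00000288838, near LINC01410, had a fold enrichment of 4.37 and 3.35 in HET-1A, 4.18 and 3.76 in KYSE-150, and 4.24 in KYSE-30 library 4. Its 3 near copies reached 96.7% identity. The KYSE-150 values lay below those of both other lines at the chromosome 21 region. At the chromosome 9 region the single KYSE-30 value lay just above both KYSE-150 values, and the HET-1A values spanned those of both other lines.

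Recurrent promoters were partly single-copy. The TUBGCP5 promoter at chr15:22833255-22833598 had no near copy and a peak in all 3 lines. TUBGCP5 encodes a subunit of the gamma-tubulin complex, which starts microtubules. Its fold enrichment was 7.14 in HET-1A library 2, 3.84 and 3.22 in KYSE-150 and 7.64 in KYSE-30 library 6. The long lists gave the higher values, on the lowest relative background of their library, and KYSE-150 had the lower values on a background of 2.90 and 3.28. The PDE4DIP promoter at chr1:144931965-144932735, also without a near copy, had a fold enrichment of 4.81 in HET-1A library 2, 3.50 in KYSE-150 library 7, and 3.47 and 5.17 in KYSE-30 libraries 4 and 6. PDE4DIP (myomegalin) anchors proteins at the centrosome and Golgi.

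The TBC1D3 region at chr17:36348682-36350237 carried a peak in all HET-1A and KYSE-150 libraries and in neither KYSE-30 library. TBC1D3 is a hominoid-expanded gene with a Rab GTPase-activating-like domain. The fold enrichment was 5.31 and 5.53 in HET-1A and 4.56 and 5.75 in KYSE-150. The lines with a peak overlapped. The region had 9 near copies, all on chromosome 17 and the best at 95.7% identity, and a peak was called at the copies next to TBC1D3G and at chr17:58096475-58098072.

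The leading regions of the remaining windows recurred less. On chromosome 2 next to the centromere, chr2:91761697-91762525 had a fold enrichment of 2.88 (HET-1A library 2), 2.51 (KYSE-150 library 8) and 2.99 (KYSE-30 library 4), on a relative background of 4.68, 6.57 and 6.79. It thus had a peak in all 3 lines at low enrichment and high background. On chromosome 20, chr20:29635916-29636266 near the pseudogene MLLT10P1 had 4.2 and 3.79 in HET-1A and 4.56 in KYSE-30 library 4. On chromosome 16 the leading region, chr16:33293848-33294404, had a peak in HET-1A library 1 alone (10.1) and no near copy. The largest enrichment of a gene's promoter peak in the windows, chosen after its values were seen, was at FAM72D on chromosome 1, with 5.76 in HET-1A library 2 and 19.8 in KYSE-30 library 6.

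Regions with a peak in both libraries of a line and in no other line were few in the whole data, and some lay in the windows. For KYSE-150, 0.0459% of merged regions met this rule, and 8 of those 11 regions lay in the windows. For HET-1A it was 0.0626% of merged regions, with 4 of 15 in the windows, and for KYSE-30 0.726%, with 1 of 174 in the windows. The rule needs the shorter list of each line, and the KYSE-150 lists hold 547 and 259 peaks, so these shares were not compared between lines by a test. The windows, chosen by peak counts, held 10.6% and 19.3% of the KYSE-150 lists, so the 8 of 11 is not independent of that choice. All 8 KYSE-150 regions had near copies. The leading one, chr1:148009071-148010131 in an exon of NBPF14, had a fold enrichment of 7.35 and 7.78 and 102 near copies, all on chromosome 1 and up to 97.1% identical. NBPF genes carry the Olduvai domain, whose copy number expanded in the human lineage. The next by enrichment were chr21:10201205-10201501 (4.37 and 6.23, 15 near copies) and chr15:22156666-22157174 at MIR5701-2 (4.64 and 4.95, 1 near copy). Of the 8, 3 lay in the chromosome 1 window and 3 in the chromosome 15 window.

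The leading HET-1A region, chr1:143167942-143168385, had a fold enrichment of 6.51 and 3.64 and 7 near copies. Another pair of HET-1A regions lay in the chromosome 17 window, at chr17:36296973-36297838, an intergenic place 10926 bp from the start of TBC1D3F (4.72 and 4.14), and at chr17:36404515-36404909 in an intron of the pseudogene NPEPPSP1 (3.58 and 2.49). Each had 1 near copy, the latter at NPEPPS, its parent gene, with 97% identity. The KYSE-30 region chr1:145382243-145382552 covered the start of LINC01719 next to the U1 variant gene RNVU1-6 (3.77 and 3.68). Without a peak in the other lines it still had neighbours that did, since the region of RNVU1-6 at chr1:145382739-145383516 had a fold enrichment of 3.81 (HET-1A library 2), 4.2 (KYSE-150 library 7) and 4.59 (KYSE-30 library 6). The LINC01719 region had 1 near copy, chr1:149224431-149224738, at 90.9% identity. A peak was called there in HET-1A library 2 (3.23) and in KYSE-30 library 6 (3.85).

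The share of 260 regions within 3 kb of an annotated start site was 51.9% (135 regions). Of all 260, 114 (43.8%) were intergenic, 69 (26.5%) lay in introns only, 51 (19.6%) overlapped an exon outside annotated UTRs and 26 (10%) a UTR. Counted over genes of every class, the promoter share of peaks inside minus outside the windows was −2.30 percentage points (SD 8.25, n = 6 libraries, lower inside in 4 of 6, exact permutation p = 0.531, adjusted p = 0.531), a difference smaller than the spread between libraries. It was −0.661 without KYSE-150 library 7 and −4.83 without KYSE-30 library 6. Counted over protein-coding genes only, the mean difference was −25.6 points (SD 13.1, n = 6 libraries, lower inside in 6 of 6, exact permutation p = 0.03125, adjusted p = 0.0625 over 4 tests). Inside, this share was 6.25% and 14.3% for HET-1A, 12.1% and 6% for KYSE-150, and 17.2% and 29.5% for KYSE-30. Outside it was 11.8% and 43.5%, 54.6% and 31.6%, and 51.3% and 46%. The windows hold 168 protein-coding genes among 1390 annotated genes, so most genes annotated there are of other classes. The share of protein-coding genes in the whole annotation is not given here. In the long lists most peaks at promoters of protein-coding genes lay in regions without a near copy. In KYSE-30 library 6, 18 of 39 peaks without a near copy were at a coding promoter and 5 of 39 with one, and in HET-1A library 2 these numbers were 16 of 40 and 5 of 107.

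Base composition and the AP-1 core motif were also compared. GC content inside minus outside was −2.22 points (SD 6.97, n = 6 libraries, lower inside in 5 of 6, exact permutation p = 0.406, adjusted p = 0.531). HET-1A library 1 went the other way, with 54.3% inside and 44.4% outside. Without it the difference was −4.66 (adjusted p = 0.125 by the exact permutation test), and without KYSE-150 library 7 it was −0.646. The share of peaks with the AP-1 core motif differed by −5.06 points (SD 9.49, n = 6 libraries, lower inside in 3 of 6, exact permutation p = 0.25, adjusted p = 0.5). AP-1 is the FOS and JUN family dimer that binds this site at many enhancers. Inside, the motif share was 12.5% and 14.3% for HET-1A, 5.17% and 6% for KYSE-150, and 3.45% and 11.5% for KYSE-30. Outside it was 4.61% and 24.8%, 5.11% and 5.74%, and 13.1% and 29.9%, so HET-1A library 1 was higher inside and KYSE-150 nearly equal. The difference was −7.65 without HET-1A library 1 and −2.41 without KYSE-30 library 6. Both differences were smaller than the spread between libraries.

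The genes of the windows with a promoter peak numbered 10 and 97 for HET-1A, 44 and 31 for KYSE-150, and 28 and 69 for KYSE-30, of 1390 annotated there. This was 0.719% and 6.98%, 3.17% and 2.23%, and 2.01% and 4.96% of the genes. Over the whole annotation the shares were 0.0884% and 17.2%, 0.915% and 0.262%, and 1.94% and 13.7%. The windows were therefore below the genome in both long lists, close to it in KYSE-30 library 4, and above it in both lists of KYSE-150 and in HET-1A library 1. The peak of TBC1D3 and TBC1D3L accounted for 2 of the 10 genes of the latter and for all its coding ones.

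Counted over all libraries, 12% of the 1390 genes in the windows had a promoter peak in at least 1 library, against 23.1% of all annotated genes. The counts below are of annotation entries, some of which share a symbol (13 symbols among 14 NBPF entries and 7 among 9 HERC2 pseudogene entries). Of the 14 NBPF entries 3 had a promoter peak in any library. NBPF10 and NOTCH2NLA, a NOTCH2-related gene, had a peak near a start in 3 libraries at 3 separate places (3.08, 3.56 and 3.72 for HET-1A library 2, KYSE-150 library 7 and KYSE-30 library 6), and NBPF12 (4.82) and NBPF15 (5.72) had a peak in KYSE-30 library 6 alone. No promoter peak was found at the entries of histone cluster 2 (12), of the FOXD4, CBWD and PGM5 families (13), of TP53TG3 (8) or of the HERC2 pseudogenes (9). Of 10 GOLGA6 and GOLGA8 entries 1 had one, GOLGA8IP in KYSE-150 library 7 (4.21). Of 9 POTE and ANKRD genes 1 had one, ANKRD30BL at the edge of the chromosome 2 run, in both lists of KYSE-150 (4.14 and 4.44) and in KYSE-30 library 4 (3.98).

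Of 209 immunoglobulin heavy chain genes and segments, 9 had a peak within 3 kb of their start in any library, beside the 12% over all genes in the windows. The functional genes of the chromosome 14 locus are rearranged and expressed in B cells, and no B cell marker had a promoter peak. The 209 entries also include pseudogenes and entries on chromosomes 15, 16 and 21. Among the 9 were the pseudogenes IGHGP and, on chromosome 15, IGHV1OR15-6. IGHA2 had a peak in KYSE-150 (4.08 and 3.51) and KYSE-30 library 4 (4.42), and the pseudogene IGHGP in HET-1A (3.79 and 3.15) and KYSE-150 library 8 (3.96). The enrichment of the listed immunoglobulin genes lay between 2.69 (IGHA1 in HET-1A library 2) and 4.42, and none had one in KYSE-30 library 6.

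The lists of genes named for single-copy DNA or for a band had promoter peaks mainly in 1 or both of the long lists. Over all annotated genes 23.1% had a promoter peak in any library, 17.2% in HET-1A library 2 and 13.7% in KYSE-30 library 6. These shares count non-coding genes and pseudogenes too. The share over all protein-coding genes, the closer match for lists of mostly coding genes, is not given here, so the counts below are not read as high or low. Of the 168 protein-coding genes in the windows, 23 had one in HET-1A library 2 and 27 in KYSE-30 library 6. Of 22 single-copy genes of 1q21, 13 had a promoter peak, 10 of them in the long KYSE-30 list and 6 in that of HET-1A, with 1 in KYSE-30 library 4. TXNIP, which binds thioredoxin and limits glucose uptake, had a fold enrichment of 4.83 in HET-1A library 2 and 5.52 in KYSE-30 library 6. PIAS3, a SUMO ligase that inhibits STAT3, had 4.74 and 4.70. The phosphatase gene ACP6 (7.58) and the exon junction component RBM8A (6.43) had a peak in KYSE-30 library 6 alone. FMO5 and CHD1L share a promoter, which had 4.37 and 4.74 in these lists. Of 13 genes of 17q12, 0 had a promoter peak in KYSE-30 library 6 and 6 had one in HET-1A library 2. The highest were MRPL45, a mitochondrial ribosome protein (7.88), whose region had 1 near copy at 97.6% identity, and the shared promoter of PCGF2 and PSMB3 (6.08). Of 7 genes of 15q11 outside the duplications, 3 had one, TUBGCP5, NIPA2 (5.62 in HET-1A library 2) and MKRN3 (4.82 in KYSE-30 library 6). Of 12 zinc finger genes 3 had one, led by ZNF33A (4.37 in HET-1A library 2 and 6.83 in KYSE-30 library 6).

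Some U1 genes had recurrent promoter peaks, and this group was picked after its values were seen. The U1 RNA of the spliceosome is encoded by a family on chromosome 1, with the RNVU1 variants in this window. Of 32 annotated U1 genes and pseudogenes in the windows, 8 had a promoter peak, 2 of them in 4 libraries, 1 in 3, 1 in 2 and 4 in 1. Beside this stand 12% of all genes in the windows and 23.1% of all annotated genes with one in any library, the latter a similar share. The share of all genes with a promoter peak in 4 libraries is not given here. The promoter peaks of RNVU1-18 fell in several regions. At chr1:149223281-149224238 the fold enrichment was 3.94 in KYSE-150 library 7 and 6.29 and 8.48 in KYSE-30, and at chr1:149224453-149224728 it was 3.23 in HET-1A library 2 and 3.85 in KYSE-30 library 6. The peaks of RNVU1-6 in 4 libraries were those of its own region and of the LINC01719 region given above. At RNU1-120P, chr1:147735629-147736304 had 5.3 in HET-1A library 2 and 3.91 and 5.21 in KYSE-30. CDC27P1, within the chromosome 2 run, had a peak within 3 kb of its start in all 6 libraries, at more than 1 region of the run. The lncRNA gene LSP1P5 on chromosome 1 had one in 5 libraries, spread over 3 regions. Its region chr1:148927904-148928397 had 3.4 in KYSE-150 library 8 and 4.21 and 8.78 in KYSE-30.

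Libraries shared their peaks in the windows to a varied degree. Of the shorter list of each pair, the share of peaks overlapped by the other list was higher inside the windows than outside in 9 of 15 pairs and lower in 6. The medians over the pairs, which share libraries, were 32.8% inside and 20.1% outside. Between the 2 libraries of a line it was 68.8% inside (11 of 16 peaks) and 23.7% outside in HET-1A, 48% (24 of 50) and 17.7% in KYSE-150, and 31% (9 of 29) and 56.6% in KYSE-30. HET-1A library 1 shared 8 of its 16 peaks with KYSE-150 library 8 and 2 with KYSE-30 library 6. The pairs in which the share was lower inside all had HET-1A library 2 or KYSE-30 library 6 as the longer list.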

How the data were processed

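Peak lists of 6 ATAC-seq libraries were used, 2 for each line. Reads were trimmed by the authors, mapped to hg19 with Bowtie2 2.3.3.1 and had duplicates marked with Picard 2.2.1. The authors then removed blacklisted regions with bedtools, applied the Tn5 shift, kept sub-nucleosomal fragments and used MACS2 to call the peaks of each library separately (q-value 0.05). Blacklisting and the assignment of fragments with several matches (not given in the sources used here) both bear on these windows. Each deposited list gives a score, a fold enrichment as a ratio of tags to local background, −log10 of the p-value, and −log10 of the q-value. Counts of reads and depths are not part of the lists.

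Tags and background were recovered from the fold enrichment and the Poisson p-value, which returned −log10 p within 0.001 for 100% of peaks. Recovery and word counting were tested on simulated data. Words of 50 bases were counted on both strands of GRCh37, near copies came from BLAST+ 2.17.0 (megablast, word size 28), and genes from GENCODE release 44 mapped to GRCh37, with promoters within 3 kb of a start. The difference between peaks inside and outside, taken within each library, was tested by exact sign-flip permutation over 6 libraries with Benjamini-Hochberg adjustment over 4 features. A repeat-masked share was not run, because the reference used here carries no repeat marks.

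The windows, lists and tests were chosen with earlier results of these data known. Named regions were those in 5 or more libraries, the leading region of each window (by libraries, then mean fold enrichment), and up to 3 line-specific regions per line by mean fold enrichment; named genes were those nearest to these regions, those with a promoter peak in 4 or more libraries, and 2 to 4 examples per family. The near-copy comparison, the chromosome 2 run (regions under 10 kb apart), the flanks, the U1 genes, and the values of the chromosome 15 window were chosen after their values were seen. Alternatives were a q-value under 0.01 or 0.001, equal lists of the 168 peaks of smallest p-value, 1 kb promoters, protein-coding genes only, summit-centred sequence, 31-base words, other overlaps, leaving out the largest window and leaving out each library. The result of 1 gene is not reported here.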

Additional observations from a re-analysis of the deposited data

How the results depend on the processing

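All results are bounded by the unequal lists and unknown depth, and by counts as low as 16 peaks. With equal lists of 168 peaks the share in the windows moved to 0.595% (HET-1A library 2), 16.1% (KYSE-150 library 7), and 6.55% and 1.79% (the KYSE-30 libraries), and the number of regions with a peak in all 3 lines to 4, where shorter lists leave fewer peaks to share. Leaving out 1 library at a time gave 5 to 12 such regions against 14, with 5 without HET-1A library 2 and 7 without KYSE-30 library 4. The 4 features tested kept their direction under every alternative run. Their side of the threshold says nothing, since 1 or 2 features at the smallest p of 0.03125 reach no adjusted p under 0.0625. The size did move: the multi-copy difference of 16.2 points was 39.3 with 31-base words and 56.5 when 1 repeated word was enough, and the promoter difference of −2.30 points was −25.6 with protein-coding genes only. Without 1 library at a time the promoter difference ran from −4.83 to −0.661, GC content from −4.66 to −0.646, the AP-1 share from −7.65 to −2.41 and the multi-copy share from 15.2 to 17.7. With the 3 lines as units no p-value under 0.25 is possible, and with 5 libraries none under 0.0625, so those fits say nothing about stability. The 4 features were tested on differences paired within each library. Pairing libraries between lines was not possible because the lines share no library numbers, and no test between lines was run. The alternatives for a repeat-masked share of peaks were not run, because the reference used here carries no repeat marks.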
